A study of Homo sapiens with 4 samples.

Results

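Glycolysis splits glucose into pyruvate, which lactate dehydrogenase turns into lactate or the pyruvate dehydrogenase complex passes to the mitochondria. Glucose-6-phosphate can leave the route for glycogen, the cell's glucose store, or for the pentose phosphate pathway, which makes NADPH and ribose. Colon cancer cells run glycolysis at a high rate even with oxygen present, and many of its genes are induced by hypoxia-inducible factor (HIF). The 43 genes described here, called members below, encode the enzymes of these routes and some of their regulators. They were chosen by symbol, with earlier results of these data known. All 43 were found among the 20263 genes of the count table.

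Cells of HCT116, a widely used established line from a human colon carcinoma, were treated with N_12 or given its solvent DMSO, and both groups were harvested at 24 h. The series title calls N_12 a derivative of nilotinib, a kinase inhibitor used against BCR-ABL. The treatment tag of the N_12 libraries carries another code, HJJ_3_5, and no label states a dose. All cells grew in a medium labelled MC5A with 10% serum, and each library was made from 1.4 ug of total RNA with a kit for mRNA. Each group held 2 libraries, and nothing in the labels says that they came from separate cultures. The p-values therefore measure only the spread between these libraries, which may be technical. The question of the comparison is which transcripts differ under N_12.

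Total counts were 41717938 and 39865327 in N_12 and 31120459 and 29769568 in DMSO, so depth moved with the treatment, and its effect cannot be told apart from that of the compound. The 5 epithelial markers EPCAM, CDH1, KRT8, KRT18 and KRT19 summed to 3328 and 3673 CPM (counts scaled to a common library size, with TMM factors) in N_12 and to 4594 and 4060.3 CPM in DMSO. Of the markers of other cell types, the leukocyte genes PTPRC and CD3E and the fibroblast genes COL1A2, DCN and LUM had 0 counts in all 4 libraries, and the leukocyte gene LYZ and the endothelial genes PECAM1 and CDH5 had at most 0.332 CPM. The endothelial gene VWF had 0.593 and 1.74 CPM in N_12 and 1.02 and 0.714 CPM in DMSO. The fibroblast gene COL1A1 was present in every library, at 55.1 and 59.98 CPM in N_12 and 64.5 and 60.8 CPM in DMSO.

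In cells given N_12, 8 of 19 glycolytic enzyme genes were called lower, at 7 of the 11 steps from glucose to lactate. Of 6 pentose phosphate genes 0 were called in either direction. Genes were called at a Benjamini-Hochberg adjusted p under 0.05 in edgeR's quasi-likelihood test over 14105 genes. Of the 43 members, all of which were tested, 12 were called lower and 1 was called higher. Because the members were chosen with earlier results known, these counts are not independent of that choice. Among all tested genes 1.43% were called lower and 0.822% higher. With shares this low, 0 calls among 6 genes does not set the pentose phosphate branch apart from all tested genes. The median log2 fold change was -0.29 over the members and 0.01 over all tested genes. The members together took 1.93% and 2.15% of all counts in N_12 libraries and 3.47% and 3.13% in DMSO libraries. GAPDH alone took 0.742% and 0.804% in N_12 and 1.55% and 1.34% in DMSO.

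The calls are given here by branch. Of 19 genes coding for the enzymes of glycolysis, 8 fell and none was called higher, with a median log2 fold change of -0.60 and 18 of 19 values below 0. At an unadjusted p of 0.05, 14 of the 19 were lower and 0 higher, shares that were 10.8% and 11% over all tested genes. DESeq2 called 10 of the 19 lower and 0 higher, against 4.87% lower and 4.14% higher of all genes it tested. Limma-voom called 7 lower and 0 higher, where it called 0.929% of all genes in either direction. Of 4 genes that set the level of fructose-2,6-bisphosphate 1 fell, and of 4 pyruvate dehydrogenase kinases 2 fell. In the glycogen branch 1 of 7 genes fell and 1 rose, with a median of -0.09. The 7 include PGM2, which acts mainly on pentose phosphates. In the pentose phosphate branch 0 of 6 passed in either direction, with a median of 0.08; 1 of these had an unadjusted p under 0.05 on the lower side and 2 on the higher side. DESeq2 and limma-voom also called 0 of these 6. Whether the branches differ from each other was not tested.

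The calls rest on having both N_12 libraries. Without N_12 replicate 1, or without N_12 replicate 2, edgeR called 0 genes in the whole table, while 2855 and 2763 genes passed an unadjusted p of 0.05. The number of called-lower members was then 0, and their highest adjusted p over the fits that each left out 1 library ran from 0.111 to 0.161. The N_12 libraries were both lower than either DMSO library for 29 members and both higher for 8, against 26.8% and 27.9% of all tested genes.

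**Figure D1:**
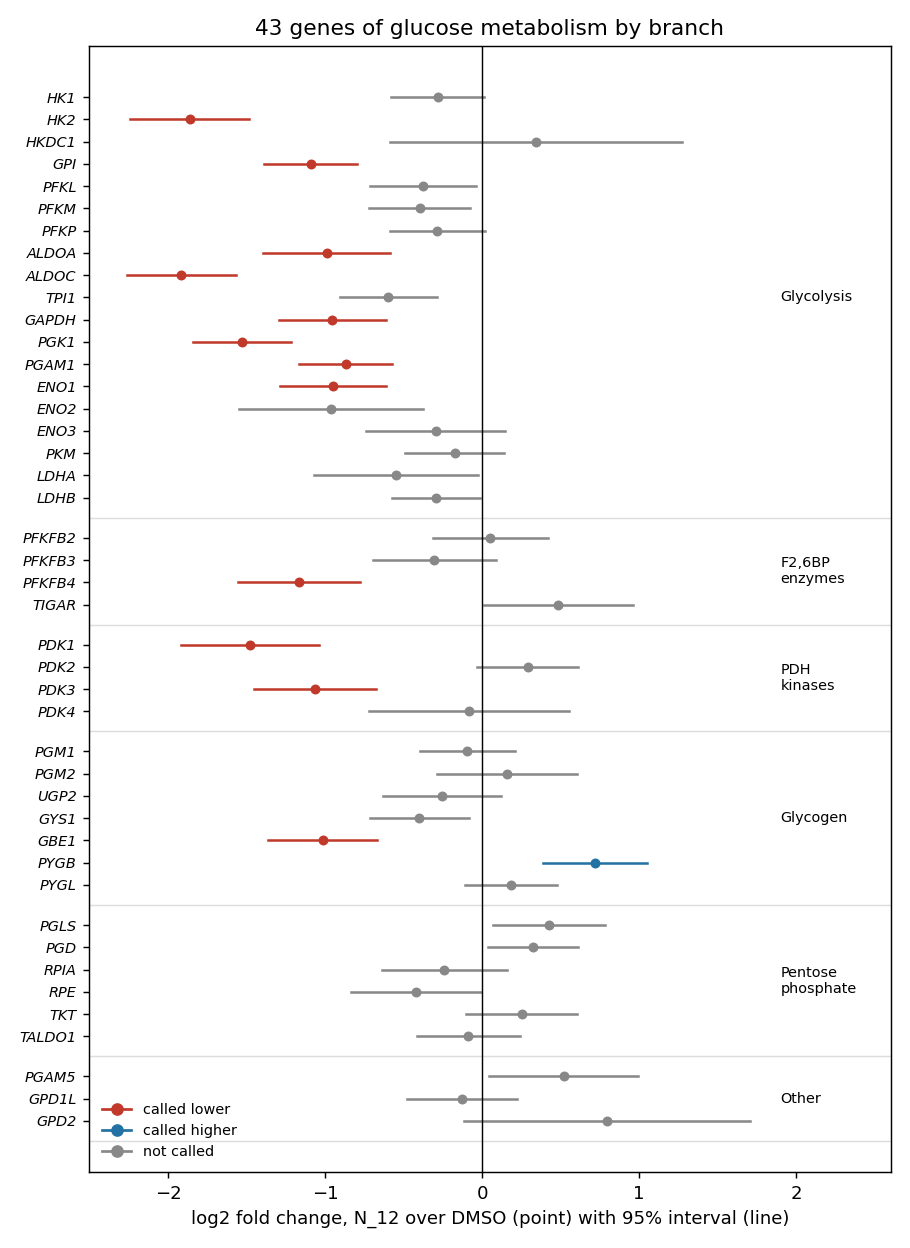
Log2 fold change of N_12 over DMSO for each of the 43 genes (points) with its 95% interval (lines), from edgeR, grouped by branch. The called-lower genes run from -1.92 for ALDOC to -0.87 for PGAM1, and PYGB at 0.72 is the 1 gene called higher.

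Hexokinases trap glucose in the cell by phosphorylating it. HK2, the inducible and mitochondria-bound hexokinase of many tumours, had 57.4 and 68.2 CPM in the N_12 libraries and 251 and 205 CPM in the DMSO libraries. The N_12 libraries were both low, the DMSO libraries both high, and the groups did not overlap. HK2 (ENSG00000159399) fell by 1.86 on the log2 scale (SE 0.16, edgeR adjusted p = 0.00260). HK1, the widely expressed hexokinase, had 189 and 205 CPM in N_12 and 239.996 and 239 CPM in DMSO. Its log2 fold change was -0.28 (95% interval -0.58 to 0.01) and it was not called. HKDC1, a hexokinase-like gene, was near the lower end of detection, at 1.33 and 1.96 CPM in N_12 and 1.71 and 0.884 CPM in DMSO, and its groups overlapped.

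The ratio of HK2 to HK1 was also compared between the treatments. It uses the same HK2 counts as the call above, so it is not a separate result. Counts of HK2 per count of HK1 were 0.304 and 0.332 in N_12 and 1.05 and 0.856 in DMSO. Per kilobase of merged exon, the ratio of HK2 to HK1 was 0.316 and 0.345 in N_12 and 1.09 and 0.888 in DMSO. The mean log2 ratio differed by -1.57 between N_12 and DMSO, with an exact two-sided permutation p = 0.3333. That is the smallest p that 2 libraries against 2 can give, so no ratio of this kind can pass a threshold of 0.05.

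GPI, the isomerase that turns glucose-6-phosphate into fructose-6-phosphate, had 491 and 494 CPM in N_12 and 1111 and 988 CPM in DMSO. Its N_12 libraries were close together and far below either DMSO library. It fell by 1.09 on the log2 scale (SE 0.13, edgeR adjusted p = 0.00983). Phosphofructokinase, the committed step of glycolysis, has 3 genes and none was called. PFKL, the liver type, differed by -0.37 (95% interval -0.71 to -0.04), PFKM, the muscle type, by -0.40 (-0.72 to -0.08) and PFKP, the platelet type, by -0.28 (-0.59 to 0.02), all on the log2 scale. For each of the 3, every N_12 value was under every DMSO value, as was the case for 26.8% of all tested genes.

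Fructose-2,6-bisphosphate activates phosphofructokinase, and the bifunctional PFKFB enzymes make and remove it. PFKFB4, a member of that family, had 40.5 and 50.6 CPM in N_12 and 109.996 and 94.4 CPM in DMSO, and the groups did not overlap. It fell (log2 fold change -1.17, SE 0.17, adjusted p = 0.0202, edgeR). PFKFB3 differed by -0.30 (95% interval -0.69 to 0.09) and PFKFB2 by 0.05 (-0.32 to 0.42), and neither was called. TIGAR, a p53-inducible phosphatase that lowers fructose-2,6-bisphosphate, had 18.3 and 13.2 CPM in N_12 and 11.3 CPM in each DMSO library. Its log2 fold change of 0.49 (0.01 to 0.96) was not called.

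Aldolase splits fructose-1,6-bisphosphate into triose phosphates. ALDOC, the aldolase isoform best known from brain, had 113 and 134 CPM in N_12 and 499 and 435 CPM in DMSO. ALDOA, the isoform of most tissues, had 592 and 771 CPM in N_12 and 1494 and 1209.6 CPM in DMSO. Groups did not overlap for either gene. ALDOC (ENSG00000109107) had the lowest log2 fold change of the 43 genes, -1.92 (SE 0.15, adjusted p = 0.00201, edgeR). ALDOA fell by 0.99 on the log2 scale (SE 0.17, edgeR adjusted p = 0.0366). It was not called once DMSO replicate 1 was left out (adjusted p = 0.0546), with limma-voom (adjusted p = 0.0660) and without robust dispersions (adjusted p = 0.0701). There were 0.191 and 0.174 counts of ALDOC per count of ALDOA in N_12 and 0.334 and 0.360 in DMSO. The mean log2 ratio of ALDOC to ALDOA differed by -0.92 (exact permutation p = 0.3333).

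**Figure D2:**
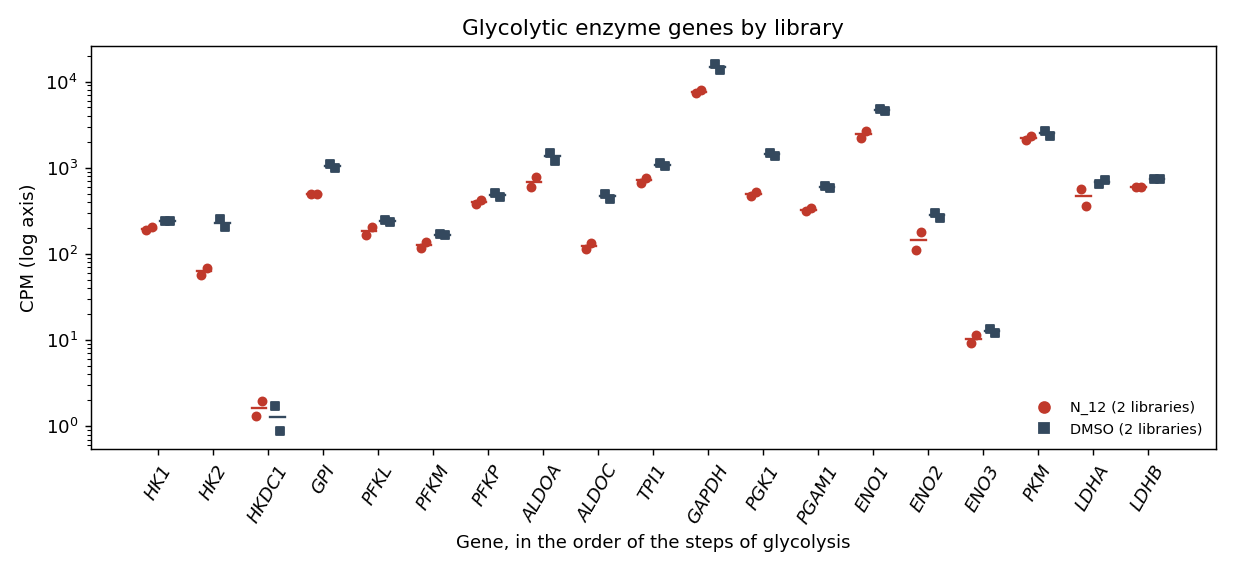
CPM of the 19 glycolytic enzyme genes in each library on a log axis, in the order of the steps, with N_12 as circles, DMSO as squares and group means as short lines. For HK2, GPI, ALDOC and PGK1 the N_12 libraries stand well below the DMSO libraries, whereas for HKDC1 the groups overlap.

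The later steps of glycolysis make its ATP. TPI1, which interconverts the triose phosphates, had 673 and 768 CPM in N_12 and 1127 and 1050.2 CPM in DMSO. It missed the threshold (log2 fold change -0.60, 95% interval -0.90 to -0.29, adjusted p = 0.0628, edgeR) and was called by DESeq2. GAPDH, which oxidises glyceraldehyde-3-phosphate, had 7351 and 7865 CPM in N_12 and 15852 and 13607 CPM in DMSO. It fell by 0.95 on the log2 scale (SE 0.15, adjusted p = 0.0237, edgeR), and it was the most abundant of the 43 transcripts. GENCODE names 62 pseudogenes after GAPDH, so how its reads were assigned is uncertain.

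PGK1, the first ATP-forming enzyme of glycolysis, had 467 and 524 CPM in N_12 and 1490.1 and 1371 CPM in DMSO. The group means were 495 ± 40.6 CPM in N_12 and 1431 ± 84.2 CPM in DMSO (SD, n = 2 each). The log2 fold change was -1.53 (SE 0.13, adjusted p = 0.00260, edgeR). PGAM1, the mutase that moves the phosphate of phosphoglycerate, had 312 and 342 CPM in N_12 and 614 and 578 CPM in DMSO. It fell by 0.87 on the log2 scale (SE 0.13, adjusted p = 0.0207). Its near-identical retrogene PGAM4, at 2.42 and 3.83 CPM in N_12 and 4.95 and 4.69 CPM in DMSO, may share reads with it. PGAM5 bears a similar name but is a mitochondrial protein phosphatase. It had 63.2 and 72.6 CPM in N_12 and 38.6 and 56.1 CPM in DMSO, higher in both N_12 libraries but not called (log2 fold change 0.52, adjusted p = 0.197, edgeR).

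Enolase makes phosphoenolpyruvate. ENO1, its main form, had 2221 and 2669 CPM in N_12 and 4857 and 4589 CPM in DMSO, and fell (log2 fold change -0.95, SE 0.15, adjusted p = 0.0233, edgeR). ENO2, the form best known from neurons, had 109.8 and 178 CPM in N_12 and 301 and 259 CPM in DMSO. Its log2 fold change of -0.96 was close to that of ENO1, but the N_12 libraries lay far apart and edgeR did not call it (95% interval -1.55 to -0.38, adjusted p = 0.1003). DESeq2 called it lower (adjusted p = 0.00309). ENO3, the muscle form, differed by -0.29 (-0.74 to 0.15).

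At the last steps edgeR called no gene. PKM, the pyruvate kinase gene of most cells and tumours, had 2093 and 2338 CPM in N_12 and 2633 and 2363 CPM in DMSO, and N_12 replicate 2 came close to DMSO replicate 2. Its log2 fold change was -0.17 (95% interval -0.49 to 0.14). LDHA, the lactate-forming subunit gene, had 571 and 364 CPM in N_12 and 655 and 712 CPM in DMSO. Its log2 fold change was -0.55 (-1.07 to -0.02, adjusted p = 0.213, edgeR), and it moved between -0.93 and -0.26 as single libraries were left out. LDHB, the other subunit gene, had 602 and 604 CPM in N_12 and 748 and 731 CPM in DMSO, with a log2 fold change of -0.29 (-0.57 to -0.01, not called).

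Summing the genes of each step as CPM per kilobase of merged exon gives the transcript level of a step. Such sums in N_12 were 34.6% of those in DMSO at phosphoglycerate kinase, 42.8% at aldolase and 46.9% at GPI. Steps near the middle were GAPDH (51.6%), enolase (51.8%), PGAM1 (54.8%), hexokinase (55.3%) and TPI1 (66.2%). Lactate dehydrogenase stood at 77.6%, phosphofructokinase at 80.3% and pyruvate kinase at 88.7%. All 11 step sums were lower in both N_12 libraries than in either DMSO library, with an exact two-sided permutation p = 0.3333 for each, the smallest possible. Of all tested genes, 26.8% had both N_12 libraries below both DMSO libraries. At pyruvate kinase the gap was narrow, with 272.8 in N_12 replicate 2 and 275.7 in DMSO replicate 2. In both treatments the GAPDH step had the highest sum, 2552 ± 122 in N_12 and 4941 ± 532 in DMSO (CPM per kilobase, SD, n = 2 each), and enolase came next. The lowest sums were those of hexokinase, 42.0 ± 3.23 in N_12 and 75.99 ± 5.60 in DMSO, and of GPI, 46.1 ± 0.156 in N_12 and 98.3 ± 8.11 in DMSO. Merged exon length includes exons that these cells may not use, so the order of steps is approximate.

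**Figure D3:**
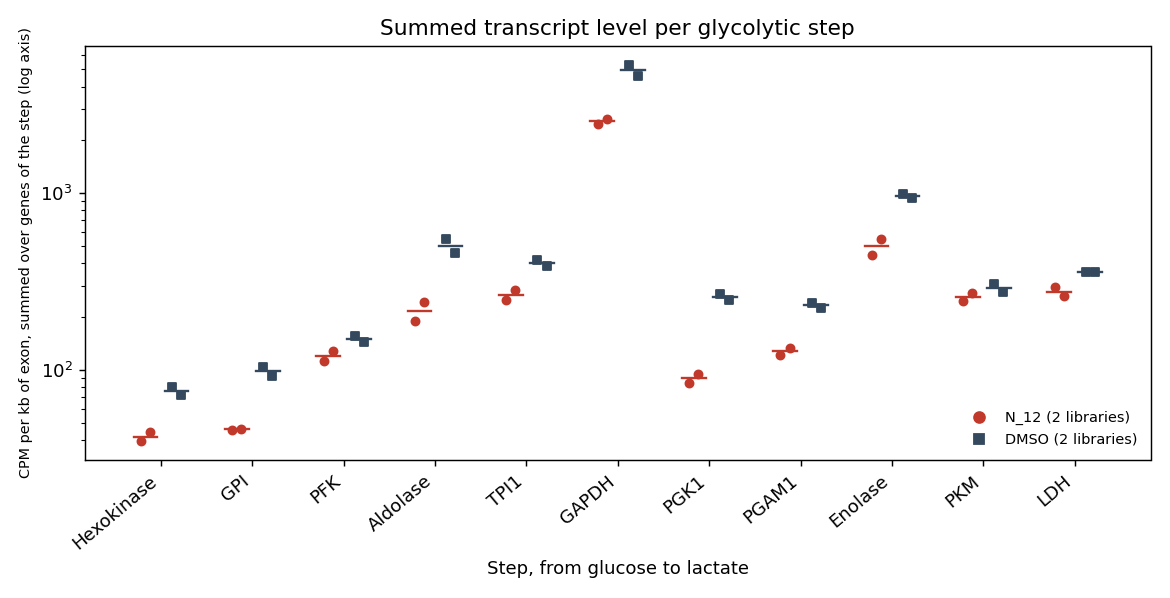
CPM per kilobase of merged exon, summed over the genes of each glycolytic step and drawn on a log axis, for each N_12 library (circles) and each DMSO library (squares), with group means as lines. The gap is widest at PGK1, where N_12 reached 34.6% of DMSO, and narrowest at PKM, at 88.7%.

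The promoters of the 4 genes with the lowest fold changes (ALDOC, HK2, PGK1 and PDK1), of the called-higher gene PYGB, and of LDHA, the uncalled gene with most matches, are shown to compare their hypoxia response element cores. HIF binds such elements, whose core is ACGTG or GCGTG. The sequences are RefSeq's on GRCh38.p14, 250 bases before to 50 after the annotated start, read 5′ to 3′ on the gene's strand, and capitals mark ACGTG on either strand (CACGT where it lies on the other strand).
ALDOC: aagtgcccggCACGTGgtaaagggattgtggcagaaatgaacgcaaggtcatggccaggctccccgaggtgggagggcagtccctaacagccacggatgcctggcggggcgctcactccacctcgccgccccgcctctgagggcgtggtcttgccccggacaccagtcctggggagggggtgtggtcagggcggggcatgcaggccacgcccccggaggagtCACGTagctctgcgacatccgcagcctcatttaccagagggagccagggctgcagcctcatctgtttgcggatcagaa
HK2: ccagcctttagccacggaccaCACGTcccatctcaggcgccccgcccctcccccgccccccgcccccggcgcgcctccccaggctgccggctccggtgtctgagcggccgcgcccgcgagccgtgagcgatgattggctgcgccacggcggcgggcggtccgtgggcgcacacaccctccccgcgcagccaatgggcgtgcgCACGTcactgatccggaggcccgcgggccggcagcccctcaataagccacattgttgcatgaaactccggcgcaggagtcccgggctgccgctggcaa
PGK1: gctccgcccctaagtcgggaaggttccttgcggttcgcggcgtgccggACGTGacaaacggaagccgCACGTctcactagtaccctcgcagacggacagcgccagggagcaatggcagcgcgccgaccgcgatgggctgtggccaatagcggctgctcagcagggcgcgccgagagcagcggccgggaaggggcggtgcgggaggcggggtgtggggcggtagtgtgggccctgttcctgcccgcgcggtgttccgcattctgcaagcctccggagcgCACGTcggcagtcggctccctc
PDK1: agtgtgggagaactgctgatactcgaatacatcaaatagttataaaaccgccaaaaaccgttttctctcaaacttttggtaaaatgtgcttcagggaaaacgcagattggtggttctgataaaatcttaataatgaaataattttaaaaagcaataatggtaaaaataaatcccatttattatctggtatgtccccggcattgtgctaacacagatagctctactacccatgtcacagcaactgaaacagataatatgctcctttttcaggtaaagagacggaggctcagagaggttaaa
LDHA: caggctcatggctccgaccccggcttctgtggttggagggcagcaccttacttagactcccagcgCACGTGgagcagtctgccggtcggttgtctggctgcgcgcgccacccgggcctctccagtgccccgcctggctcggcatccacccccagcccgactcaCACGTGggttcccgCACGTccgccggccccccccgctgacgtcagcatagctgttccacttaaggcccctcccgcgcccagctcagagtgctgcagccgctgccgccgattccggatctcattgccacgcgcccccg
PYGB: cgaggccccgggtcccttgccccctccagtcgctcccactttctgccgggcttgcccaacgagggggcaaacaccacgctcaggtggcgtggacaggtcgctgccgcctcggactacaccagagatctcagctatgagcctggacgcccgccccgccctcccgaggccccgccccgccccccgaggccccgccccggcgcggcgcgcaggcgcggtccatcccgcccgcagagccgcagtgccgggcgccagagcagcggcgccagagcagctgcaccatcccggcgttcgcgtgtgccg

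ALDOC lies on chr17:28576846-28577145 (minus strand) and held 2 such sites, 1 of them the E-box CACGTG, which contains the core on both strands and was counted once. HK2 on chr2:74833877-74834176 (plus strand) held 2, and PGK1 on chrX:78103998-78104297 (plus strand) held 3. PDK1 on chr2:172555123-172555422 (plus strand) and PYGB on chr20:25247835-25248134 (plus strand) held 0 ACGTG sites. The other core, GCGTG on either strand, is not capitalised. PYGB held 3 of these, ALDOC 2, HK2, PGK1 and LDHA 1 each, and PDK1 0. LDHA on chr11:18394313-18394612 (plus strand) held 3 ACGTG sites. Its transcript was lower in both N_12 libraries but not called by edgeR (log2 fold change -0.55, 95% interval -1.07 to -0.02). Whether such sites bear on the fold changes was not tested. The table gives 1 start for a gene, which need not be the start used in HCT116, and a match is a string of letters and not a site of binding.

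Of the 43 genes 42 had a promoter in the table, all but PFKFB2. ACGTG on either strand was present in 8 of the 12 promoters of called-lower genes (66.7%), in 7 of the other 30 (23.3%) and in 26.0% of the 11150 promoters of tested genes. It was present in 21.6% of all 27305 promoters. GCGTG on either strand, a string distinct from ACGTG, was present in 7 of 12 (58.3%), in 15 of 30 (50%) and in 49.96% of the promoters of tested genes. The E-box CACGTG was present in 2 of 12 (16.7%), in 2 of 30 (6.67%) and in 9.91% of those of tested genes. With ACGTG or GCGTG counted together the shares were 83.3%, 56.7% and 62.1%. Median CpG counts per promoter were 26 in called-lower genes, 29 in the other members and 26 in tested genes. These shares are a description of 12 and 30 promoters and were not tested.

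Pyruvate dehydrogenase kinases phosphorylate the pyruvate dehydrogenase complex and so hold pyruvate back from the mitochondria. PDK1, a kinase of the family, had 26.4 and 19.4 CPM in N_12 and 65.95 and 61.2 CPM in DMSO. PDK3 had 10.9 and 11.8 CPM in N_12 and 22.7 and 24.9 CPM in DMSO. The groups did not overlap in either gene, and both fell, with log2 fold changes of -1.48 for PDK1 (SE 0.19, adjusted p = 0.0144, edgeR) and -1.06 for PDK3 (SE 0.17, adjusted p = 0.0248). PDK2 lay the other way, at 72.7 and 73.9 CPM in N_12 and 60.9 and 59.0 CPM in DMSO, but was not called (0.29, 95% interval -0.03 to 0.61). Of the exon bases of PDK2, 38.6% overlap SAMD14 on the other strand, and without a stated strand setting reads of the pair cannot be told apart. PDK4, the kinase induced by fasting in liver and muscle, differed by -0.08 (-0.72 to 0.55) with overlapping groups.

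Glycogen genes split. GBE1, the branching enzyme of glycogen synthesis, had 38.9 and 34.8 CPM in N_12 and 74.9 and 74.0 CPM in DMSO. It fell by 1.01 on the log2 scale (SE 0.15, adjusted p = 0.0207, edgeR). GYS1, the glycogen synthase of muscle and most tissues, had 75.7 and 81.3 CPM in N_12 and 108 and 99.1 CPM in DMSO, and was not called (-0.40, 95% interval -0.72 to -0.08). PYGB, the brain form of glycogen phosphorylase, which releases glucose units from glycogen, had 316 and 376 CPM in N_12 and 222 and 199 CPM in DMSO. It rose (log2 fold change 0.72, SE 0.14, adjusted p = 0.0495, edgeR), the only called-higher gene of the 43. That call was lost with each single library left out (adjusted p from 0.0832 to 0.174), under DESeq2's size factors in edgeR (0.0515), with limma-voom (0.0804) and without robust dispersions (0.0848).

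PYGL, the liver form of the phosphorylase, had 207 and 204 CPM in N_12 and 173 and 188 CPM in DMSO, which was not called (0.18, 95% interval -0.11 to 0.48). Counts of PYGL per count of PYGB were 0.654 and 0.542 in N_12 and 0.782 and 0.943 in DMSO. UGP2, which makes UDP-glucose, differed by -0.26 (-0.63 to 0.12). PGM1, which interconverts glucose-1-phosphate and glucose-6-phosphate, differed by -0.09 (-0.40 to 0.21), and PGM2, which acts mainly on pentose phosphates, by 0.16 (-0.29 to 0.60).

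**Figure D4:**
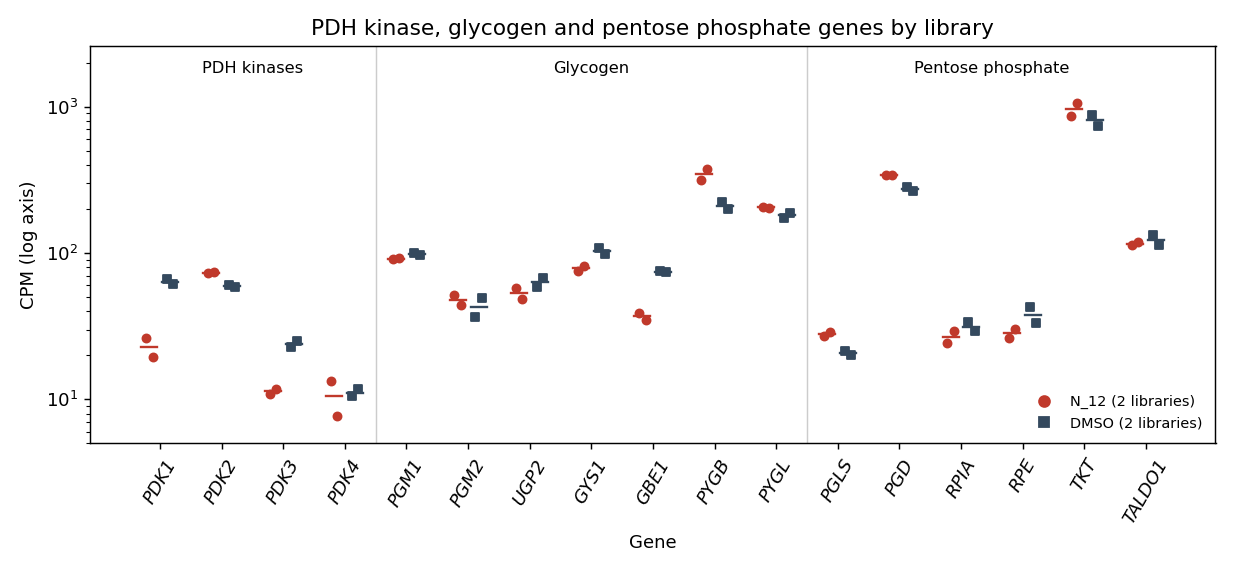
CPM on a log axis of the pyruvate dehydrogenase kinase (PDH kinase), glycogen and pentose phosphate genes in each N_12 library (circles) and each DMSO library (squares), with group means as lines. PDK1, PDK3 and GBE1 were called lower in N_12 and PYGB higher, while no pentose phosphate gene was called. TKT was the most abundant of the pentose phosphate genes, at 868 and 1055 CPM in N_12.

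None of the pentose phosphate genes was called by edgeR, and their log2 fold changes lay between -0.42 for RPE and 0.43 for PGLS. In the oxidative arm, which makes NADPH, PGD had 344 and 343 CPM in N_12 and 284 and 264 CPM in DMSO. PGLS had 26.9 and 28.97 CPM in N_12 and 21.5 and 20.1 CPM in DMSO. Both lay higher in both N_12 libraries, as did 27.9% of all tested genes, and neither was called. Log2 fold changes were 0.32 (95% interval 0.04 to 0.61, adjusted p = 0.186, edgeR) for PGD and 0.43 (0.07 to 0.78, adjusted p = 0.168) for PGLS. In the non-oxidative arm, which interconverts sugars with glycolysis, TKT differed by 0.25 (-0.10 to 0.61) and TALDO1 by -0.09 (-0.41 to 0.24). RPIA differed by -0.24 (-0.64 to 0.16) and RPE by -0.42 (-0.84 to -0.0045). RPE shares 23.8% of its exon bases with KANSL1L on the other strand.

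The glycerol-3-phosphate shuttle carries electrons from cytosolic NADH to the mitochondria. GPD2, its mitochondrial dehydrogenase, had 55.6 and 109 CPM in N_12 and 42.96 and 51.8 CPM in DMSO. N_12 replicate 2 stood apart, and the log2 fold change of 0.79 (95% interval -0.12 to 1.71, not called) became 0.23 without that library. GPD1L, a cytosolic relative, differed by -0.13 (-0.48 to 0.22).

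Within-step ratios were compared for 7 gene pairs, and the smallest p adjusted over the 7 was 0.583. Besides HK2 to HK1 and ALDOC to ALDOA, the log2 ratio of PYGL to PYGB differed by -0.53 and that of PDK1 to PDK3 by -0.43, each with groups that did not overlap. The ratios of ENO2 to ENO1 (-0.04), LDHA to LDHB (-0.29) and PFKP to PFKL (0.10) had overlapping groups. Groups that do not overlap are common with so few libraries. Among single tested genes, 26.8% had both N_12 libraries below both DMSO libraries and 27.9% had both above.

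**Figure D5:**
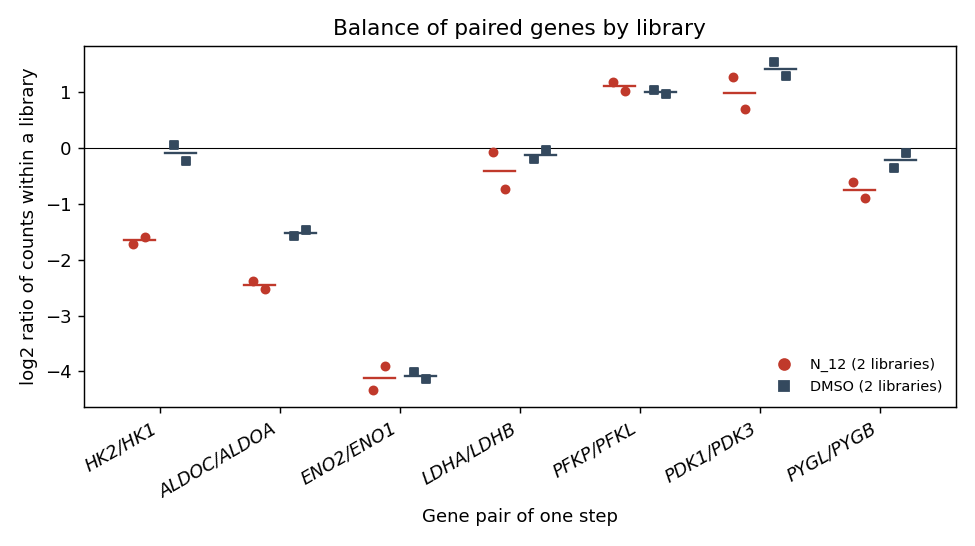
Log2 ratio of the counts of paired genes within each library, for 7 pairs, with N_12 as circles, DMSO as squares and group means as lines. HK2 to HK1 averaged -1.65 in N_12 and -0.08 in DMSO, and ALDOC to ALDOA averaged -2.45 in N_12 and -1.53 in DMSO.

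Other genes of the same routes were taken from a list of 60 relatives, subunits and regulators. Of these, 37 had enough counts to be tested, 1 was called lower and 0 higher by edgeR. At an unadjusted p under 0.05 there were 5 lower and 4 higher, DESeq2 called 2 lower and 3 higher, and limma-voom called 0 higher. Over all tested genes edgeR called 1.43% lower and 0.822% higher, and 10.8% and 11% passed the unadjusted threshold. DESeq2 called 4.87% lower and 4.14% higher of all genes it tested, and limma-voom called 0.929% in either direction. The called gene was PPP1R3B, a subunit that brings protein phosphatase 1 to glycogen. It had 43.4 and 42.1 CPM in N_12 and 103 CPM in both DMSO libraries (102.7 and 103.1), and fell by 1.27 on the log2 scale (SE 0.14, adjusted p = 0.00639, edgeR). The median log2 fold change of the 37 was -0.01.

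Uncalled genes of that list included H6PD, which makes NADPH in the endoplasmic reticulum, with a log2 fold change of -0.46 (95% interval -0.81 to -0.11, adjusted p = 0.144, edgeR). LDHD, a mitochondrial D-lactate dehydrogenase, differed by -0.73 (-1.18 to -0.29, adjusted p = 0.0917). PCK2, the mitochondrial enzyme that makes phosphoenolpyruvate, differed by 0.64 (0.20 to 1.08, adjusted p = 0.117). The 23 untested genes had at most 0.689 CPM in every library, among them the liver forms PKLR and GYS2 and the gluconeogenic genes FBP1, PCK1 and G6PC1.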

How the data were processed

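The deposited table holds whole-number counts per gene for 4 libraries, without normalization, keyed by human Ensembl identifiers. Although the identifiers are human, GRCm38 and mm10, which are mouse builds, stand in the submitters' processing notes. For aligner, counting tool and strand setting, the sources used here give nothing. Symbols were found for 20148 of 20263 identifiers. Groups and replicate numbers came from the sample titles.

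The counts went through edgeR 4.0.16 (R 4.3.3): TMM scaling, its expression filter, a robust quasi-likelihood fit of N_12 against DMSO without a replicate term, and two-sided Benjamini-Hochberg adjustment over 14105 genes at 0.05. Intervals are 95% intervals. CPM use TMM-scaled totals. Lengths are merged exons of GENCODE release 29. The procedure was checked on simulated counts. Replicates differed beyond sampling noise (chi-square divided by its degrees of freedom, 57.2 in N_12 and 36.5 in DMSO) and were counted separately. The alternatives used limma 3.58.1, DESeq2 1.42.0, other scalings and filters, non-robust dispersions, replicate blocks, GC content and length correction, and leaving out each library.

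The members and lists were chosen with earlier results of these data known. All members were named; genes of the second list were named where called, and H6PD, LDHD, PCK2, PGAM4, STBD1, PRPS2 and the untested genes given as examples were chosen after their values were seen. Some genes of that list are not reported here.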

Additional observations from a re-analysis of the deposited data

How the results depend on the processing

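Against 201 genes lower and 116 higher in the reported fit, the whole table held 525 and 438 with a replicate block, 640 and 544 with DESeq2, 84 and 47 with limma-voom, 84 and 47 without robust dispersions, and 536 and 385 with GC content and length correction. With single libraries left out these counts ran from 0 to 225 lower and from 0 to 226 higher. Labels give N_12 and DMSO libraries the same replicate numbers, but nothing says that they pair, and the deviations of same-numbered libraries correlated at -0.13. With the replicate block 15 members were lower, TPI1, ENO2 and LDHA besides the reported 12, and 2 higher, GPD2 besides PYGB. Crossing the numbers in the block, chosen after seeing the data, left 20 genes lower and 8 higher, with 3 members lower (all 3 of glycolysis, 0 in the other branches), 0 higher and 0 of the second list lower.

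The 12 lower members kept their calls under both other scalings, both other filters, the uncrossed block, DESeq2 and the GC content and length correction, and ALDOA alone lost its call with limma-voom and without robust dispersions. Leaving out libraries gave 0 to 12 lower members (0 to 8 of glycolysis, 0 to 1 regulators, 0 to 2 pyruvate dehydrogenase kinases, 0 to 1 of glycogen) and 0 higher, both lows being the fits without an N_12 library. The higher count was also 0 with DESeq2's size factors in edgeR, limma-voom and non-robust dispersions. The second list held 2 lower and 3 higher genes with DESeq2, 2 lower and 2 higher with GC content and length correction, and 0 to 1 lower with libraries left out.

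Signs turned in genes that were never called: PFKFB2 was -0.027 with GC content and length correction and -0.045 to 0.12 with libraries left out, HKDC1 -0.052 to 0.89, PDK4 -0.55 to 0.25, PGM2 -0.045 to 0.39 and TALDO1 -0.20 to 0.037. So did the log2 ratio differences of ENO2 to ENO1 (-0.26 to 0.17) and LDHA to LDHB (-0.62 to 0.039). Where no cause is named, the cause was not tested. Of 601 refitted fold changes of members, 541 kept their sign and side of the threshold.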

Other observations

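In a pair of genes outside the 43, the N_12 libraries differed from each other by more than the treatment means did. STBD1, which binds glycogen, had 8.26 and 33.1 CPM in N_12 and 31.5 CPM in each DMSO library. Of its exon bases 58.1% are shared with the read-through gene FAM47E-STBD1. PRPS2, a phosphoribosyl pyrophosphate synthetase gene, had 46.4 and 24.6 CPM in N_12 and 29.3 and 27.4 CPM in DMSO.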
